A study of Homo sapiens with 8 samples.

Results

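The insulin-like growth factor (IGF) system was followed through 10 of the 60659 genes of the count table, chosen by name as members of this growth factor system: the ligands IGF1 and IGF2, the receptors IGF1R and IGF2R, and the binding proteins IGFBP2, IGFBP3, IGFBP4, IGFBP5, IGFBP6 and IGFBP7. All 10 were found as rows of the table by their Ensembl identifiers. The cells were SK-N-SH, an established human neuroblastoma line, and RNA was sequenced in 2 libraries for each of 4 groups. All groups received 10 µM all-trans retinoic acid (ATRA), which drives neuroblastoma cells towards neurons, for 24 h. The overexpression experiment set cells with a doxycycline-inducible ZMYND8 transgene against parental cells, both given doxycycline (Dox). Per the study's methods, the transgene was delivered by a lentiviral pInducer20 vector and its carriers were selected with G418, so vector and selection were absent from the parental cells. The knockdown experiment set cells with ZMYND8 knockdown (KD), a method that relied on lentiviral shRNA elsewhere in the study, against KD control cells, and no Dox is named for either group. The labels call the replicates biological but do not say whether they came from separate cultures, so p-values measure the spread between these libraries only.

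Both IGF ligands signal through IGF1R, a receptor tyrosine kinase that activates PI3K and AKT, whereas IGF2R carries no kinase, takes IGF2 into the cell for degradation and also sorts lysosomal enzymes. The secreted binding proteins IGFBP2 to IGFBP6 hold the ligands outside the cell, and proteases that cut them, such as PAPPA for IGFBP4 and IGFBP5, set the ligands free. IGFBP6 prefers IGF2, and IGFBP7 is a related protein that binds IGFs weakly. In neuroblastoma, autocrine IGF signalling is known to support growth and survival, and binding proteins are known to change as the cells differentiate.

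The promoters of 4 binding proteins are shown to let their sequence be read beside the values: those of the 3 members that fell most in the overexpression experiment and that of the one binding protein that rose. They cover 250 bases before to 50 bases after a transcription start and come from RefSeq on GRCh38.p14. IGFBP5, IGFBP4 and IGFBP2 fell and IGFBP3 rose. Of 5 motifs searched on both strands, the TATA box (TATAAA), the GC box (GGGCGG), the nuclear receptor half-site (AGGTCA), the AP-1 site (TGANTCA) and the E-box (CACGTG), every match is written in capitals.
IGFBP5, chr2:216695500-216695799, minus strand: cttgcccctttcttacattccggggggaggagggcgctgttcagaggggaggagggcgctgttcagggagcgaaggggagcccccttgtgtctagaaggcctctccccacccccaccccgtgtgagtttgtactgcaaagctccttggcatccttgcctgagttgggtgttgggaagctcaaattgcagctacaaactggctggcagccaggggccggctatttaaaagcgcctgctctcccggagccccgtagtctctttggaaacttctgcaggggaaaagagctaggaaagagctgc
IGFBP4, chr17:40443200-40443499, plus strand: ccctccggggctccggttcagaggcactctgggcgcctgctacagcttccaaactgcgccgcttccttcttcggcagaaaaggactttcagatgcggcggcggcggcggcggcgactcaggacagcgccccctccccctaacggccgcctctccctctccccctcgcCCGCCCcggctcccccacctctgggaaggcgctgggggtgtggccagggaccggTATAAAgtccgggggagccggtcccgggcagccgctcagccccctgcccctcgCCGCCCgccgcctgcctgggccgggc
IGFBP2, chr2:216633170-216633469, plus strand, the middle of 3 starts listed: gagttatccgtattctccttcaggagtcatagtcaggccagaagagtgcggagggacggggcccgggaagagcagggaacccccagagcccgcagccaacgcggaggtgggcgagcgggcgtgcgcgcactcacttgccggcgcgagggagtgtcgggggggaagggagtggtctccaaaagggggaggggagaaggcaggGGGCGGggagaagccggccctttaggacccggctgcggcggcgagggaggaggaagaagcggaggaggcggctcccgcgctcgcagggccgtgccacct
IGFBP3, chr7:45921223-45921522, minus strand: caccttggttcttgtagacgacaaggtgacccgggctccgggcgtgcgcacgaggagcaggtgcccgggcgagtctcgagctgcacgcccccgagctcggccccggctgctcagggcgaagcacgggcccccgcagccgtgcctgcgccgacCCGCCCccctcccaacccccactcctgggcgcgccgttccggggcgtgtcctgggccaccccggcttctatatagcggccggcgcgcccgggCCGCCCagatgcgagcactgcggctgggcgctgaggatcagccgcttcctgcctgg

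The IGFBP4 promoter held a TATA box 29 bases before its start, a motif present in 11.5% of 35116 promoters of this length. It also held GC boxes at positions −83 and 24 from the start, IGFBP3 held GC boxes at −98 and −6, and this IGFBP2 promoter held one at −49, against 45.0% of all promoters with at least one. None of these 4 windows held the nuclear receptor half-site, the AP-1 site or the E-box as spelled above. Of all promoters, 13.8%, 7.71% and 7.26% held them. The IGFBP5 window held none of the 5 motifs as spelled. The TATA box was searched only as TATAAA. Other stretches of A and T, such as tatttaaaa in the IGFBP5 window and tatata in that of IGFBP3, were not searched. Of the windows not shown, that of IGF2R held 6 GC boxes and 3 E-boxes, and that of the first IGFBP2 start held a nuclear receptor half-site at −191 and a GC box at −86. The window of 1 of the 2 IGF1 starts held a nuclear receptor half-site at 16, that of IGF1R held 2 GC boxes and that of IGFBP6 held 1, and the last IGFBP2 start and the other IGF1 start held none of the 5. The promoter table matched 8 of the 10 members; IGF2 and IGFBP7 have no entry in it. IGFBP2 and IGFBP5 lie tail to tail on chromosome 2, IGFBP2 at 216632828-216664436 on the plus strand and IGFBP5 at 216672105-216695549 on the minus strand, with 7668 bases between them.

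The libraries held 38316523 to 56256979 counts each, so an abundant member was limited by the spread between replicates and a rare one, such as IGFBP7, by counting. The transgene check came out as labelled. ZMYND8 had 3089 and 3612 counts in parental cells and 220691 and 182849 upon overexpression, and 3128 and 3374 in KD control cells and 1641 and 1640 upon knockdown (log2 fold changes 5.87 and −0.94, edgeR adjusted p = 5.04e-12 and 2.20e-06). The 2 experiments stood apart in other respects: mitochondrial genes took 0.110 to 0.168% of counts in the overexpression experiment and 2.92 to 3.41% in the knockdown experiment. The labels describe the cells as neuroblastoma epithelial cells. Levels are given as counts per 1000000 scaled counts (CPM). Of the epithelial markers, KRT18 stood at 147 to 405 CPM, but CDH1, the cadherin that defines epithelia, had between 0 and 12 counts and EPCAM between 22 and 56. SOX10 of Schwann cells, CDH5 of endothelium and PTPRC and CD3E of immune cells had 3 counts or fewer in every library.

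Upon ZMYND8 overexpression 4 of the 6 binding proteins fell, and IGF2, which had no count in parental cells, was detected. IGFBP5 and IGFBP4 fell most, IGFBP2, IGF2R and IGFBP6 fell less, IGFBP3 rose, and IGF1R and IGFBP7 did not pass the test. A gene passed at a Benjamini-Hochberg adjusted p below 0.05 in edgeR's quasi-likelihood test over all 20835 genes tested, and it was called when its log2 fold change was also 1 or more in size and its normalized counts averaged above 20. IGF2 entered the test only through the overexpression libraries and so had to differ, and it is left out of the counts. Of the other 8 members tested, 6 passed, 1 higher and 5 lower, and 2 were called, both lower. Of all genes tested, 60.8% passed, 31.7% higher and 29.1% lower, and 18.6% were called, so most genes passed in this experiment. The median log2 fold change was −0.53 over these 8 members, −0.60 over the 6 binding proteins and 0.03 over all genes tested.

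**Figure D1:**
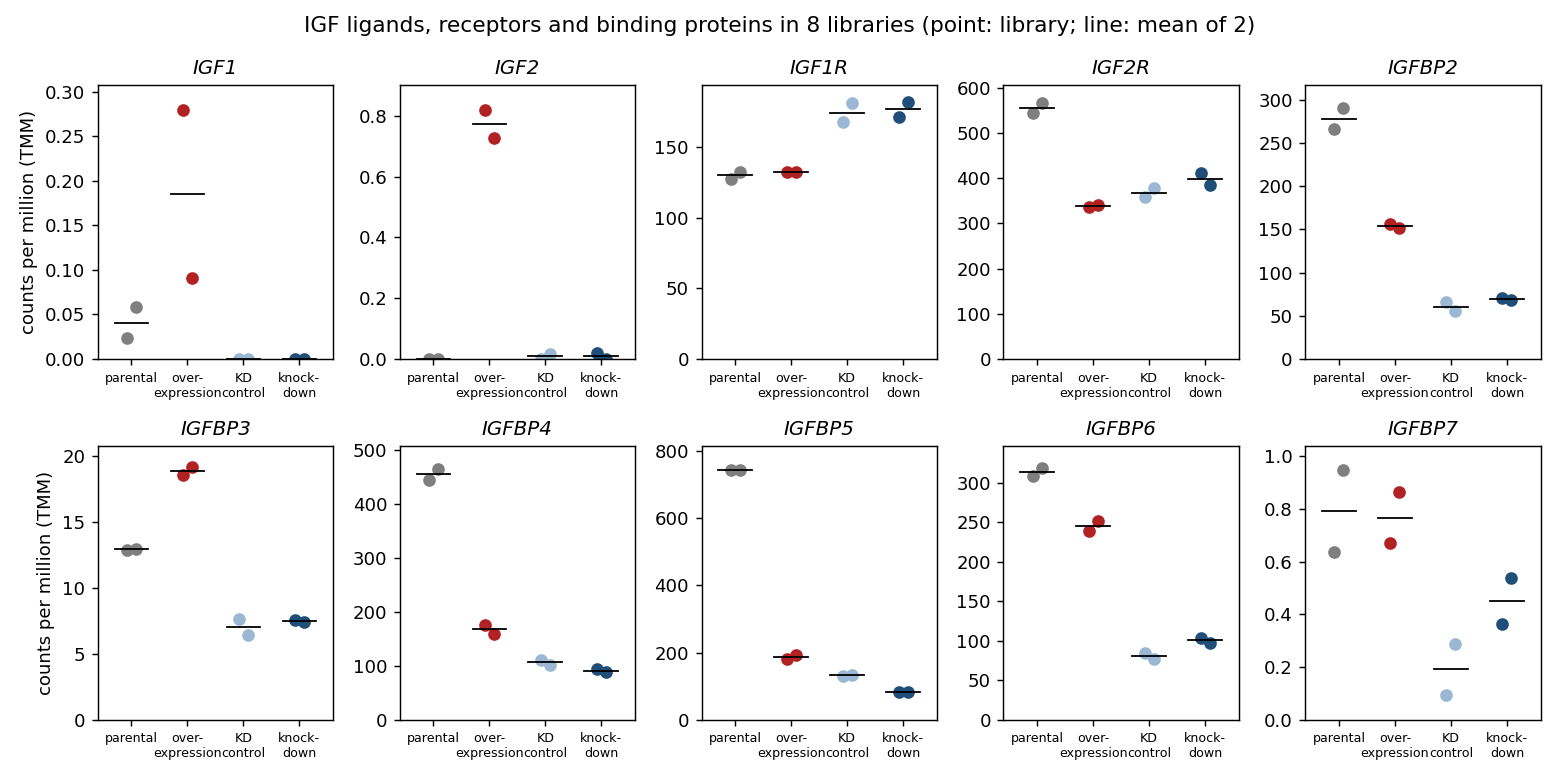
Levels of the 10 IGF system genes in CPM on TMM-scaled library sizes (vertical axis, its own scale in each panel, all starting at 0) in the 4 groups (horizontal axis); points are libraries and lines are means of 2 libraries. IGFBP5 drops from near 742 in parental cells to 187 upon overexpression, while IGF1R lies at 128 to 133 in all 4 libraries of that experiment.

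Among the ligands, IGF2 (chromosome 11, 2129112-2141238, minus strand) was at 0 in parental replicates 1 and 2 and had 44 and 32 counts upon overexpression. Every overexpression library lay above both parental libraries. Against a floor of 3 counts per library, the mean of 0.773 ± 0.064 CPM (SD, n = 2) was at least 12-fold higher than in parental cells. The mean normalized count of 18.6 was under the minimum of 20, and without parental replicate 1 or 2 it was 25.6 or 24.1. Of its exon bases, 70.7% are shared on the same strand with ENSG00000284779, which had 2 counts in 1 overexpression library and 0 in the others, and 15.9% with INS-IGF2, which had 0 in all 8. In the knockdown experiment IGF2 had 0 and 1 counts in KD control cells and 1 and 0 upon knockdown, too few to test.

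IGF1 (chromosome 12, 102395874-102481744, minus strand) had 1 and 3 counts in parental cells and 15 and 4 upon overexpression, with no count in the 4 libraries of the knockdown experiment. Both overexpression libraries lay above both parental ones, but most of the difference came from 1 of them. The ratio of summed counts, scaled for library size, was 4.57, with an exact 95% counting interval of 1.52 to 18.5 that covers counting error only, and IGF1 was not tested because too few libraries reached the count minimum. In the knockdown experiment, 0 counts allow a level of up to 0.0576 CPM in the library with the highest limit. On the opposite strand, the lncRNA HELLPAR shares 82.5% of the exon bases of IGF1 and had 122 to 189 counts in each library. The strand setting of the counting is not given in the sources used here, so counts of the pair cannot be assigned to one strand with certainty.

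Of the receptors, IGF2R fell and IGF1R did not pass, so their levels came closer to each other. IGF1R (chromosome 15, 98648539-98964530, plus strand) measured 128 and 133 CPM in parental cells and 132 and 133 CPM upon overexpression, and these ranges overlapped. The log2 fold change was 0.04 ± 0.05 (SE), with a 95% interval from −0.07 to 0.14 (edgeR adjusted p = 0.546). IGF2R (chromosome 6, 159969082-160113507, plus strand) measured 544 and 566 CPM in parental cells and 336 and 340 CPM upon overexpression. Both overexpression libraries lay below both parental ones, at a log2 fold change of −0.71 ± 0.05 (SE; edgeR adjusted p = 4.54e-07). Per kilobase of exon length, IGF2R exceeded IGF1R by a ratio of 2.63 in both parental libraries and of 1.56 and 1.58 in the overexpression libraries. In the knockdown experiment the ratio was 1.32 and 1.28 in KD control cells and 1.48 and 1.31 upon knockdown, where the groups lay close together against the spread between libraries.

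Of the binding proteins, IGFBP5, which is secreted into the matrix and can inhibit or support IGF action, measured 743 and 742 CPM in parental cells and 181 and 192 CPM upon overexpression. The groups were far apart relative to the spread within them. The log2 fold change was −1.98 ± 0.05 (SE; edgeR adjusted p = 3.28e-10), a 3.95-fold fall. IGFBP4 (chromosome 17, 40443450-40457725, plus strand), an inhibitory binding protein, measured 445 and 465 CPM in parental cells and 177 and 160 CPM upon overexpression. Its overexpression libraries likewise lay below both parental libraries, at a log2 fold change of −1.43 ± 0.06 (SE; edgeR adjusted p = 9.82e-09). These 2 genes were the members called.

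IGFBP2, a binding protein abundant in the fetal brain, measured 266 and 290 CPM in parental cells and 156 and 151 CPM upon overexpression. The groups did not overlap, and the log2 fold change was −0.85 ± 0.06 (SE; edgeR adjusted p = 3.45e-07). When gene length and GC content were corrected for, the change was −1.06, past the fold limit for a call. IGFBP6 (chromosome 12, 53097436-53102345, plus strand) measured 308 and 319 CPM in parental cells and 239 and 251 CPM upon overexpression, again without overlap. Its fall was the smallest among the members that passed, at a log2 fold change of −0.35 ± 0.05 (SE; edgeR adjusted p = 1.50e-04), and it depended on that correction in size, with a value of −0.69 when it was applied.

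IGFBP3 (chromosome 7, 45912245-45921874, minus strand), the main carrier of IGFs in serum and a known retinoic acid responsive gene, went the other way. It measured 12.9 and 13.0 CPM in parental cells and 18.6 and 19.2 CPM upon overexpression, so both overexpression libraries lay above the parental ones. The log2 fold change was 0.55 ± 0.08 (SE; edgeR adjusted p = 1.23e-04). IGFBP7 (chromosome 4, 57030773-57110385, minus strand) was low, with 27 and 49 counts in parental cells and 36 and 38 upon overexpression, and the groups overlapped. At this depth its log2 fold change of −0.06 had a 95% interval from −0.73 to 0.60 (edgeR adjusted p = 0.872). Of its exon bases, 18.3% lie opposite to exons of POLR2B or IGFBP7-AS1.

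Markers of cell state moved with these values. Adrenergic neuroblastoma markers, those of the sympathetic neuron-like state, summed to 334 and 338 CPM in the parental libraries and to 1157 and 1216 CPM upon overexpression, and 9 of 9 tested rose. Mesenchymal neuroblastoma markers summed to 12952 and 13743 CPM in the parental libraries and to 4511 and 4583 CPM upon overexpression, where 9 of 10 fell and 1 rose. The part of cell state in the change of the binding proteins was not tested. In bulk RNA, fewer cells of a kind and less RNA per cell cannot be told apart.

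Upon ZMYND8 knockdown IGFBP5 and IGFBP4 fell and IGFBP6 rose, and the other members tested did not pass. Of the 8 members tested, 3 passed, 1 higher and 2 lower, and none was called by edgeR or DESeq2, while 5 had an unadjusted p below 0.05. Of the 19789 genes tested, 24.3% passed, 13.4% higher and 10.8% lower, and 1.96% were called. The count of all genes that passed, 4799, dropped to 2813 without the library of KD control replicate 2. The median log2 fold change was 0.11 over the members tested and −0.01 over all genes tested.

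IGFBP5 measured 129 and 134 CPM in KD control cells and 81.1 and 84.0 CPM upon knockdown. Both knockdown libraries lay below both controls, at a log2 fold change of −0.67 ± 0.05 (SE; edgeR adjusted p = 8.86e-06). It thus fell upon overexpression and upon knockdown, each against its own control. IGFBP4 measured 112 and 101 CPM in KD control cells and 94.4 and 88.1 CPM upon knockdown, without overlap but with a smaller gap. Its log2 fold change was −0.22 ± 0.06 (SE; edgeR adjusted p = 0.0241). The adjusted p was 0.169 without KD control replicate 1 and 0.0869 without ZMYND8 knockdown replicate 2, and it ranged from 0.00117 to 0.169 over 13 alternatives, of which 9 kept it below 0.05.

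IGFBP6 measured 84.7 and 77.5 CPM in KD control cells and 104 and 97.6 CPM upon knockdown. The knockdown libraries lay above both controls, at a log2 fold change of 0.31 ± 0.06 (SE; edgeR adjusted p = 0.00296), in the direction opposite to that upon overexpression. IGFBP2 measured 66.1 and 55.4 CPM in KD control cells and 70.8 and 68.1 CPM upon knockdown (log2 fold change 0.20 ± 0.07, SE; edgeR adjusted p = 0.0811). The adjusted p was 0.0110 without KD control replicate 1 and 0.00917 without ZMYND8 knockdown replicate 2. The controls differed from each other by more than the nearer of them differed from the knockdown libraries.

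IGF2R measured 358 and 377 CPM in KD control cells and 411 and 386 CPM upon knockdown, with a log2 fold change of 0.12 and a 95% interval from −0.01 to 0.24 (edgeR adjusted p = 0.167). IGF1R measured 168 and 181 CPM in KD control cells and 171 and 182 CPM upon knockdown, with an interval from −0.11 to 0.15. IGFBP3 measured 7.65 and 6.43 CPM in KD control cells and 7.60 and 7.45 CPM upon knockdown, with an interval from −0.16 to 0.36. None of the 3 passed, and only IGF2R had libraries that did not overlap. IGFBP7 had 5 and 16 counts in KD control cells and 19 and 28 upon knockdown, which gave a log2 fold change of 1.21 with an interval from 0.10 to 2.31 (edgeR adjusted p = 0.108). Without ZMYND8 knockdown replicate 1 its adjusted p was 0.0456, and without KD control replicate 1 its change was 0.63 (adjusted p = 0.458). In this experiment adrenergic markers summed to 870 and 913 CPM in KD control cells and to 665 and 748 CPM upon knockdown. Of 9 adrenergic markers tested, 5 passed lower and 0 higher. Mesenchymal markers summed to 6496 and 6341 CPM in KD control cells and to 8083 and 7755 CPM upon knockdown. Of 10 mesenchymal markers tested, 5 passed higher and 2 lower, so they did not move as 1 set. The part of these markers in the values above was not tested.

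**Figure D2:**
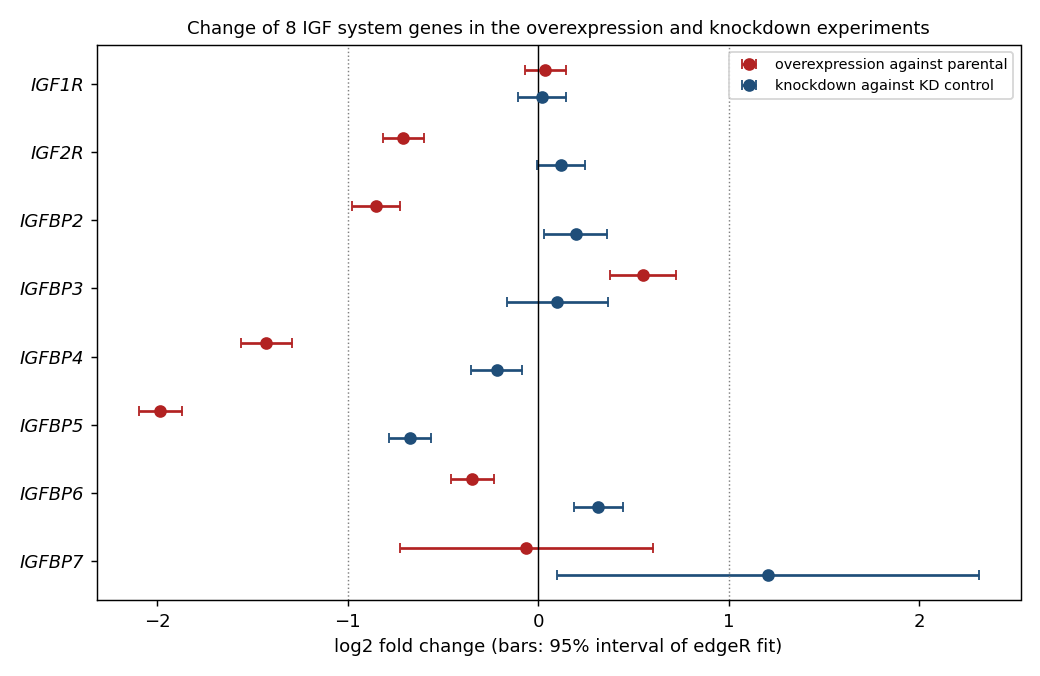
Log2 fold change (horizontal axis) of 8 members (vertical axis) upon overexpression against parental cells and upon knockdown against KD control; bars are 95% intervals of the edgeR fit and dotted lines mark a log2 fold change of 1 in either direction. IGF1 and IGF2 are left out because their counts are near 0. IGFBP5 and IGFBP4 lie left of 0 in both experiments, and IGFBP6 lies at −0.35 and 0.31.

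The overexpression effect minus the knockdown effect on each gene was tested in 1 fit over all 8 libraries. The perturbations differed in size as well as direction, with ZMYND8 log2 fold changes of 5.87 and −0.94. The overexpression effect includes vector and selection, which the parental cells lacked, and the levels in the 2 controls differed too. The difference of effects cannot be told apart from these. IGF2 again entered only through the overexpression libraries, with at most 1 count in each knockdown-experiment library, and is left out. Of the other 8 members tested, 6 passed and 3 were called, against 49.0% and 18.8% of the 22619 genes tested. IGFBP5 fell further upon overexpression than upon knockdown, by −1.32 ± 0.07 on the log2 scale (SE; edgeR adjusted p = 1.29e-09). The same difference was −1.21 ± 0.09 for IGFBP4 and −1.05 ± 0.10 for IGFBP2, the other members called. For IGFBP2 it was −0.98 without parental replicate 2 and −0.94 without KD control replicate 2, under the fold limit for a call. It was −0.83 ± 0.07 for IGF2R, −0.67 ± 0.08 for IGFBP6 and 0.45 ± 0.14 for IGFBP3, all of which passed (largest edgeR adjusted p = 0.0164). For IGFBP3 it missed the threshold without KD control replicate 1 (adjusted p = 0.0978). IGF1R differed by 0.01 with an interval from −0.16 to 0.17, and IGFBP7 by −1.27 with an interval from −2.53 to −0.01 (edgeR adjusted p = 0.0883). The difference of IGFBP7 was −2.29 without KD control replicate 2 (adjusted p = 0.0148) and −0.71 without KD control replicate 1 (adjusted p = 0.351), and it was −0.94 without parental replicate 2 and −0.97 without ZMYND8 knockdown replicate 2.

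Levels across the 4 groups were then ordered. Neighbours in the order were called apart at an adjusted p below 0.05 with libraries that did not overlap, which held for 15 of 24 neighbouring pairs of the 8 members tested other than IGF2, against 38.2% of such pairs over all genes tested. Both counts include pairs that cross the 2 experiments. For those pairs the perturbation cannot be told apart from the experiment, with its own Dox, vector and handling of cells. IGFBP5 and IGFBP4 had the same order, highest in parental cells, then upon overexpression, in KD control cells and upon knockdown, with each neighbour apart. IGFBP6 and IGFBP2 were highest in parental cells and next upon overexpression, followed by knockdown and KD control. For IGFBP2 the last pair missed the threshold (edgeR adjusted p = 0.0734), although its libraries did not overlap. IGFBP3 was highest upon overexpression, then in parental cells, with knockdown and KD control lowest and not apart. IGF1R formed 2 levels, the knockdown experiment at 174 to 177 CPM on average and the overexpression experiment at 130 to 133 CPM. For IGF2R only the parental level stood apart from its neighbour, the knockdown level, and the remaining neighbours did not. IGFBP7 had no neighbours apart.

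The controls of the 2 experiments also differed from each other. KD control cells had less than parental cells of IGFBP5 (log2 difference −2.49 ± 0.05, SE), IGFBP2 (−2.20 ± 0.07), IGFBP4 (−2.10 ± 0.07), IGFBP7 (−2.03 ± 0.43), IGFBP6 (−1.95 ± 0.06), IGFBP3 (−0.88 ± 0.10) and IGF2R (−0.59 ± 0.05), and more of IGF1R (0.42 ± 0.05). These 8 passed in the fit of all 8 libraries with edgeR, where 65.0% of all genes passed. Dox is named for the parental cells only, and the vector of the KD control cells is not given in the sources used here. Dox and the experiment cannot be told apart between these controls. The sum of mesenchymal markers was lower in KD control cells (6341 to 6496 CPM) than in parental cells (12952 to 13743 CPM) as well. Single markers went both ways. Mean levels in parental and KD control cells were 570 and 873 CPM for NES and 537 and 614 CPM for CD44. They were 83.5 and 163 CPM for TWIST1 and 8.47 and 10.7 CPM for SNAI2, while the other mesenchymal markers were lower in KD control cells. The part of these markers was not tested.

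Levels of different binding proteins were compared per kilobase of exon length. The 6 measured binding proteins summed to 605 and 627 CPM per kilobase in parental cells and to 323 and 325 upon overexpression, which is 52.6% of the parental mean. In KD control cells the sum was 149 and 137 and upon knockdown 149 and 142, with overlapping libraries. No test was run on these sums. The overexpression sums lay below both parental sums, and the make-up of the sum differed in both experiments.

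IGFBP6 made up 37.8% ± 0.061 (SD, n = 2) of the sum in parental cells and 56.2% ± 1.69 upon overexpression, and 42.0% ± 0.202 in KD control cells and 51.4% ± 0.363 upon knockdown. Its share was higher in each perturbed group than in its control, without overlap. IGFBP5 went from 18.6% ± 0.494 to 8.91% ± 0.328 upon overexpression and from 14.2% ± 1.21 to 8.79% ± 0.532 upon knockdown, and IGFBP4 from 33.5% ± 0.203 to 23.5% ± 1.78 and from 33.7% ± 0.400 to 28.4% ± 0.336. The shares of these 2 were lower in each perturbed group, again without overlap. IGFBP2 stayed between 8.49% and 10.2% in all 8 libraries, IGFBP3 between 0.453% and 1.29%, and IGFBP7 under 0.197%. The shares depend on gene length. Without it IGFBP5 was the largest in parental and KD control cells. IGFBP4 then went from 25.2% to 21.8% upon overexpression and from 27.5% to 25.9% upon knockdown. The share of IGFBP2 was not steady without length, and went from 15.4% to 19.8% upon overexpression and from 15.7% to 19.7% upon knockdown.

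**Figure D3:**
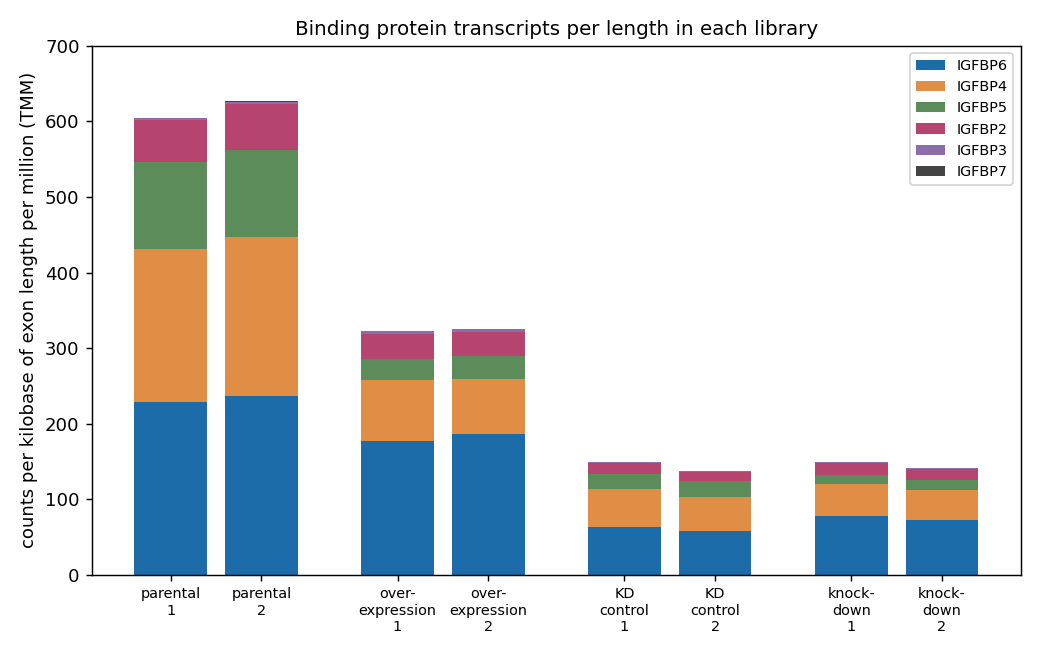
Stacked levels of 6 binding proteins in CPM per kilobase of exon length (vertical axis) in each of the 8 libraries (horizontal axis, replicates 1 and 2 of each group). The stacks reach 605 and 627 in parental cells, 323 and 325 upon overexpression and 137 to 149 in the knockdown experiment, with IGFBP6 as the largest part in each.

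Other carriers of IGFs, the proteases that cut binding proteins and the inhibitors of those proteases were taken as a list of 12, of which 10 were tested in each experiment. Upon overexpression 8 of 10 passed, 3 higher and 5 lower, and 5 were called, where 60.8% of all genes passed and 18.6% were called. Upon knockdown 8 of 10 passed, 6 higher and 2 lower, and 2 were called, where 24.3% of all genes passed and 1.96% were called. The median log2 fold change was −0.43 upon overexpression and 0.28 upon knockdown, beside 0.03 and −0.01 over all genes tested. IGFBP1, the binding protein of liver, had no count in any library.

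PAPPA, the metalloprotease that cuts IGFBP4 and IGFBP5, had 6913 and 8838 counts in parental cells and 1442 and 842 upon overexpression (log2 fold change −2.84 ± 0.12, SE; edgeR adjusted p = 8.75e-09). Its paralog PAPPA2, which cuts IGFBP3 and IGFBP5, had 10 and 8 counts in parental cells and 368 and 346 upon overexpression (5.25 ± 0.23). The 2 paralogs thus moved in opposite directions, each without overlap between groups. STC2, a stanniocalcin that inhibits PAPPA, had 95 and 91 counts in parental cells and 714 and 623 upon overexpression (2.80 ± 0.13). STC1, the other stanniocalcin, had 456 and 556 against 545 and 371 counts (edgeR adjusted p = 0.149; 0.0246 without ZMYND8 overexpression replicate 1, at a log2 fold change of −0.34). IGFBPL1, an IGFBP-like protein of the developing brain, had 246 and 293 counts in parental cells and 5819 and 5609 upon overexpression (4.37 ± 0.09). HTRA1, a secreted serine protease that cuts binding proteins, had 8800 and 11929 against 4494 and 3763 counts (−1.37 ± 0.06). Among these 6, all but STC1 were called upon overexpression.

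Upon knockdown, STC2 had 647 and 607 counts in KD control cells and 1603 and 1565 with ZMYND8 knocked down (log2 fold change 1.38 ± 0.08, SE; edgeR adjusted p = 1.89e-06). STC1 had 283 and 427 against 729 and 908 counts (1.26 ± 0.16; adjusted p = 3.12e-04), and these were the 2 genes of the list called. STC2 thus rose against its control in both experiments. PAPPA had 8336 and 9188 against 10536 and 10203 counts, a rise of 0.29 ± 0.05 on the log2 scale (adjusted p = 0.00212). PAPPA2 measured 0.38 ± 0.10 (adjusted p = 0.0206) and IGFBPL1 −0.41 ± 0.08 (adjusted p = 0.00416). PAPPA2 missed the threshold without KD control replicate 1 (adjusted p = 0.0942), without KD control replicate 2 (0.0869) or without ZMYND8 knockdown replicate 2 (0.114), and IGFBPL1 without KD control replicate 2 (0.0520).

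Downstream of the receptors, 11 of 12 genes of the insulin receptor family and its adaptors were tested. Upon overexpression 9 passed, 3 higher and 6 lower, and 4 were called, beside 60.8% and 18.6% of all genes. Upon knockdown 5 passed, 4 higher and 1 lower, beside 24.3% of all genes. INSR, the insulin receptor, whose fetal isoform also binds IGF2, had 1294 and 1684 counts in parental cells and 4175 and 3614 upon overexpression (log2 fold change 1.35 ± 0.06, SE; edgeR adjusted p = 1.27e-08). INSRR, a related receptor that senses alkaline pH, had 81 and 128 against 979 and 758 counts (3.01 ± 0.13). Both receptor genes rose while IGF1R did not pass. IRS1, the docking protein of IGF1R and INSR, had 6792 and 8540 against 3953 and 2979 counts (−1.19 ± 0.06), and GRB14, an adaptor that inhibits INSR, 125 and 158 against 61 and 70 (−1.14 ± 0.21, and −0.90 without ZMYND8 overexpression replicate 1). Upon knockdown INSR had 1870 and 1925 counts in KD control cells and 2214 and 2354 with the knockdown (0.32 ± 0.06; adjusted p = 0.00335), and INSRR did not pass (adjusted p = 0.936).

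Of 5 genes that bind or stabilize IGF2 mRNA or drive those that do, all were tested. Upon overexpression 2 rose, 2 fell and 2 were called, beside 60.8% of all genes that passed and 18.6% called. Upon knockdown 2 rose, which were also called, beside 24.3% and 1.96%. HMGA2, a chromatin protein that drives IGF2BP genes, had 3256 and 3857 counts in parental cells and 1323 and 878 upon overexpression (log2 fold change −1.75 ± 0.08, SE; edgeR adjusted p = 2.57e-08), and 778 and 889 against 1646 and 1801 upon knockdown (1.10 ± 0.08; adjusted p = 6.73e-06). It moved in opposite directions in the 2 experiments, and the difference passed (−2.85 ± 0.12; adjusted p = 7.04e-11). LIN28B, an RNA-binding protein that blocks let-7, rose in both, by 0.59 ± 0.10 and 1.22 ± 0.08, with 359 and 392 against 630 and 538 counts upon overexpression and 542 and 559 against 1252 and 1229 upon knockdown. IGF2BP1 had 89 and 68 against 227 and 123 counts upon overexpression (1.07 ± 0.26; adjusted p = 0.00456), and its change was 0.76 without parental replicate 2 and 0.74 without ZMYND8 overexpression replicate 1.

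Of 20 intracellular PI3K, AKT, mTOR and FOXO genes tested, 11 passed upon overexpression, 4 higher and 7 lower, beside 60.8% of all genes. Upon knockdown 13 passed, 8 higher and 5 lower, beside 24.3% of all genes. The median log2 fold change was 0.01 upon overexpression and 0.08 upon knockdown. The 3 genes called upon overexpression were FOXO factors, which AKT keeps out of the nucleus. FOXO1 had 1919 and 2422 counts in parental cells and 989 and 750 upon overexpression (log2 fold change −1.37 ± 0.06, SE; edgeR adjusted p = 2.46e-08). FOXO3 had 3996 and 4718 against 10214 and 8674 counts (1.07 ± 0.05) and FOXO4 615 and 712 against 1407 and 1359 (1.02 ± 0.09), so the family members moved in opposite directions. The change of FOXO4 was 0.98 without parental replicate 2 and 0.90 without ZMYND8 overexpression replicate 2, and with length and GC content corrected for it was 0.80, beside 0.97 for FOXO3.

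**Figure D4:**
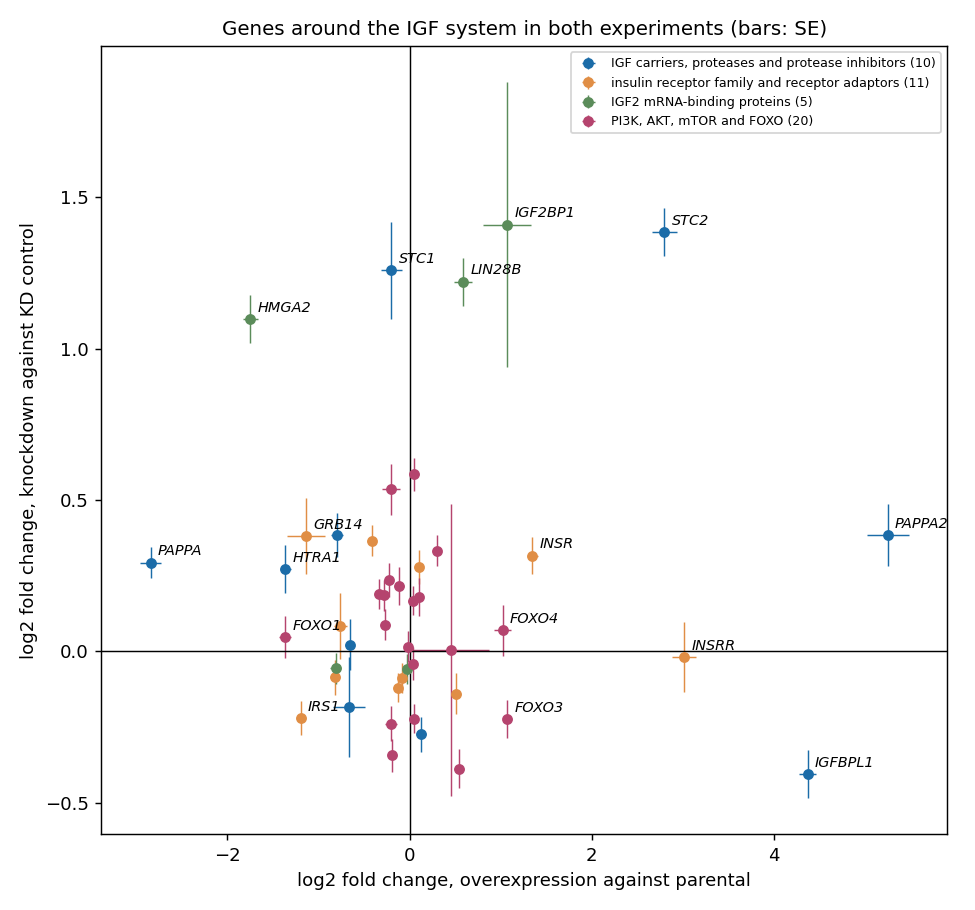
Log2 fold change upon overexpression against parental cells (horizontal axis) and upon knockdown against KD control (vertical axis) of 46 genes around the IGF system tested in both, coloured by list; bars are SE and genes past a log2 fold change of 1 in either experiment are named. PAPPA2, IGFBPL1, INSRR and STC2 lie furthest right and PAPPA furthest left, while most PI3K, AKT, mTOR and FOXO genes cluster near 0.

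The transcripts beside the members were examined last. H19, the imprinted lncRNA that lies 127641 bases from IGF2 and is expressed from the opposite parental chromosome, had 45 and 40 counts in parental cells and 859 and 612 upon overexpression (log2 fold change 4.05 ± 0.16, SE; edgeR adjusted p = 6.71e-09). Both genes of this locus were thus higher in each overexpression library than in each parental one. H19 had 31 and 67 counts in KD control cells and 111 and 90 upon knockdown (1.09 ± 0.30; adjusted p = 0.0219). Without KD control replicate 1 that change was 0.66 (adjusted p = 0.126), and without ZMYND8 knockdown replicate 1 it was 0.93. IGF2-AS, transcribed from the strand opposite to IGF2, had 0 counts in parental cells, 8 and 14 upon overexpression and 0 in the knockdown experiment, at least 3-fold higher upon overexpression on the floor of 3 counts per library. INS and INS-IGF2 had no count in any library. IGFBP7-AS1 had 0 counts in parental cells, 9 and 4 upon overexpression, 18 and 40 in KD control cells and 12 and 25 upon knockdown. IRAIN, a lncRNA within IGF1R, had at most 12 counts in any library.

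The genes whose pattern over the 8 libraries was most like a member were ranked by the root mean square difference of centred log2 CPM among 17703 genes. Each gene was centred over all 8 libraries, so the distance includes the gap between the 2 experiments as well as the changes within each. A near pattern thus does not show a shared response to ZMYND8. For IGFBP4 the nearest was TNS2, a tensin, at 0.049, ahead of NPC2 at 0.129, against a spread of IGFBP4 itself of 0.907 log2 units over the libraries. For IGFBP5 it was ANPEP, an aminopeptidase, at 0.103 (spread 1.18), for IGFBP2 FBLN1, a matrix fibulin, at 0.067 (spread 0.894), and for IGFBP6 TSPO at 0.093 (spread 0.827). For IGF2R it was the collagen chaperone SERPINH1 at 0.043 (spread 0.273), for IGF1R ZCCHC8 at 0.030 (spread 0.213), for IGFBP3 HSPBP1 at 0.056 (spread 0.587), for IGFBP7 METRNL at 0.287 (spread 0.882) and for IGF2 FGF12 at 0.271 (spread 1.82). No member was among the 3 nearest genes of another member.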

How the data were processed

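RNA of 8 SK-N-SH libraries was analysed from 1 table of counts. The authors deposited counts as whole numbers of read pairs per gene without normalization, together with the summed exon length of each gene. Per the study's methods, rRNA-depleted RNA was sequenced in pairs, trimmed with Trim_Galore, cleared of reads with a low Phred score, mapped by Hisat2 to GRCh38, and featureCounts assigned them to GENCODE genes. The submitters' processing notes name HISAT2, DESeq2 and hg38. The strand setting is not given in the sources used here, so counts of overlapping genes, also those on opposite strands, are uncertain. Of 60662 lines, 3 that belonged to 1 broken gene were left out. Symbols and overlaps came from GENCODE release 44, which held 60418 of the 60659 identifiers. Gene coordinates were taken from the table (GRCh38). Up to 5.04% of the 31-base words of a member's exons also occur on the alternate contigs of GRCh38, where reads could be lost as multiply mapped.

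Samples were grouped by the titles and treatments in the labels, and table columns by the names in those titles. Each experiment was filtered with filterByExpr, scaled by TMM, and two-sided tests were run in edgeR 4.0.16 (quasi-likelihood; limma 3.58.1, R 4.3.3), with Benjamini-Hochberg adjustment over all genes tested. The difference of the effects and the order of levels used all 8 libraries. Thresholds followed the study's methods, with the adjusted p in place of p. CPM are counts per 1000000 TMM-scaled counts, and levels between genes were divided by exon length. The tests were checked on simulated counts with 200 changed genes per comparison. Far more genes passed in these data, so that check does not cover an experiment where most genes change. Replicates differed by more than counting noise (chi-square per degree of freedom 6.05 to 8.86). Alternatives were other scalings, DESeq2 1.42.0, no filter, a replicate block, corrections for length and GC content, and each library left out in turn.

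The members and the gene lists were chosen with earlier results of these data known. The genes named from the lists were those called in either experiment, at most 6 of largest change upon overexpression in each, with the neighbours of the members in full, and for each member the 3 genes of nearest pattern were found. From the list genes, IGFBP1 was named outside this rule, after its values were seen. The same holds for the markers CDH1, EPCAM, KRT18, KRT8 and CLDN4 and the genes that overlap members. 1 gene of the lists is not reported here and was left out of their counts.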

Additional observations from a re-analysis of the deposited data

How the results depend on the processing

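With 2 libraries per group, the spread rests on few degrees of freedom, and for IGF1, IGF2 and IGFBP7 counting limits the precision. No member that passed the test reversed its direction in any alternative run. Of those that did not pass, the change crossed 0 for IGF1R in all 3 comparisons, for IGFBP7 upon overexpression (−0.32 to 0.27) and for IGFBP3 upon knockdown (−0.02 to 0.22). Where a member had a main test, 344 recomputed values stayed on the same side of the threshold, 16 no longer passed and 8 passed anew, and for ZMYND8 and the listed genes 750 stayed, 27 no longer passed and 3 passed anew. IGF1 had no main test and is not in this tally. In the 5 alternatives that tested it upon overexpression, its log2 fold change was 1.67 to 2.89. It passed in some of these and missed the threshold in others. In the overexpression experiment each member that passed did so in every alternative, and the losses fell on IGFBP4 upon knockdown and on IGF2 and IGFBP3 in the difference of effects. Among the listed genes, PAPPA2, HTRA1, IRS1, GRB14 and FOXO3 upon knockdown missed the threshold in at least 3 alternatives each, and the cause was not tested. The genes that passed upon knockdown numbered 4799, against 2970 with no filter on low counts and 2813 to 4603 upon leaving out 1 library. The correction for length and GC content gave IGFBP6 a difference of effects of −1.07.

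Replicate numbers are shared between groups, and deviations of libraries with the same number correlated at 0.0827 (overexpression) and 0.150 (knockdown). With 2 pairs per experiment these values cannot decide whether libraries of the same number belong together. The main tests used no pairing. With the replicate block, 3886 genes were called upon overexpression (3876 without it), 393 upon knockdown (388) and 4245 for the difference of effects (4244), and 12742, 6318 and 11555 passed. Under the block IGFBP2 passed upon knockdown (adjusted p = 0.00873).

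Without the division by length, the shares of the summed binding protein level in parental, overexpression, KD control and knockdown cells were 15.4%, 19.8%, 15.7% and 19.7% for IGFBP2, 0.718%, 2.44%, 1.82% and 2.14% for IGFBP3, 41.2%, 24.2%, 34.1% and 23.5% for IGFBP5 and 17.4%, 31.7%, 20.9% and 28.6% for IGFBP6. They were 25.2%, 21.8%, 27.5% and 25.9% for IGFBP4 and 0.0438%, 0.0991%, 0.0505% and 0.128% for IGFBP7.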

Other observations

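The gene ENSG00000236886, which shares 4.61% of the exon bases of IGFBP5 on the opposite strand, had 219 and 248 counts in the parental libraries, 50 and 49 upon ZMYND8 overexpression and none in the 4 libraries of the knockdown experiment, where IGFBP5 itself had 4249 to 7431 counts. It was chosen after its values were seen. In the order of its groups it followed IGFBP5 in the overexpression experiment, but not in the knockdown experiment. HELLPAR, which lies opposite IGF1, ranged from 122 to 189 counts over the 8 libraries, and POLR2B, which lies opposite IGFBP7, from 9738 to 12894.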
